A study of Saccharomyces cerevisiae with 2 samples.

Results

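The genes described here encode the NADH and lactate dehydrogenases of yeast mitochondria and cytochrome c. They were taken by name from the array annotation, which gave 8 genes of the 5656 that could be named, each with 1 probe set. On this array several short probes together report a transcript as a probe set, whose intensity is the fluorescence left after scaling and modelling, on a linear scale. Both samples were *Saccharomyces cerevisiae* deleted for *SDH3*, the gene for the cytochrome b that anchors succinate dehydrogenase in the inner membrane. Per the methods, the strain was derived from a uracil-requiring reference strain of mating type a and was grown aerobically in batch culture on minimal medium with glucose and uracil. Cells were collected when 20 g/liter of glucose remained. The sources do not say whether the 2 samples came from separate cultures or how many transformants were used, so the spread between them may be technical. The series holds 1 group of 2 arrays. The values below are therefore levels in *sdh3*Δ and their spread, with no test and no comparison with a reference strain.

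*S. cerevisiae* has no proton-pumping complex I. In its place, single-polypeptide flavoprotein dehydrogenases pass electrons from NADH to ubiquinone on either side of the inner mitochondrial membrane, in parallel with succinate dehydrogenase. The lactate dehydrogenases of mitochondria bypass ubiquinone and give their electrons directly to cytochrome c, the small heme protein that carries electrons from the bc1 complex to cytochrome c oxidase. Genes of respiration are in general repressed on glucose in this yeast.

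*SDH3* gave intensities of 22.0 and 29.3 in *sdh3*Δ replicates 1 and 2. Neither was above background, taken as the highest value on the same array among 19 control probe sets for genes absent from yeast, which was 54.8 on replicate 1 and 92.1 on replicate 2. All 19 of these controls were brighter on replicate 2, with a median log2 ratio of replicate 1 over replicate 2 of -0.67, as were all 9 probe sets for bacterial and phage transcripts added at hybridization, with a median of -0.49. The 3′ over 5′ ratio of *ACT1*, actin, was 1.02 on replicate 1 and 1.13 on replicate 2, and that of *SPT15*, the TATA-binding protein, was 1.03 and 0.927. Both *SPT15* values on replicate 2, 79.6 and 85.9, were below the limit of that array, so its last ratio rests on background values. Of 6 marker genes of a cells, 4 were above background on both arrays, and the summed intensity of all 6 was 3326 on replicate 1 and 2432 on replicate 2, or 1493 and 1743 without *MFA2*. Of 4 marker genes of alpha cells, whose sums were 253 and 385, *STE3* and *MF(ALPHA)2* were above background on neither array, *SAG1* only on replicate 1, and *MF(ALPHA)1*, a gene for the alpha-factor pheromone, on both, at 113 and 177.

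Of the 8 genes, 4 were above background on both *sdh3*Δ arrays, 2 on replicate 1 only and 2 on neither. Among all 5656 named genes these shares were 40.0%, 33.2% and 26.6%. The detected genes encode the internal NADH dehydrogenase, 1 of the pair of external NADH dehydrogenases, the D-lactate dehydrogenase that feeds cytochrome c, and iso-1 of cytochrome c. Because probe sets differ in affinity, the intensity of a gene is set below only against its own value on the other array and against background.

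**Figure D1:**
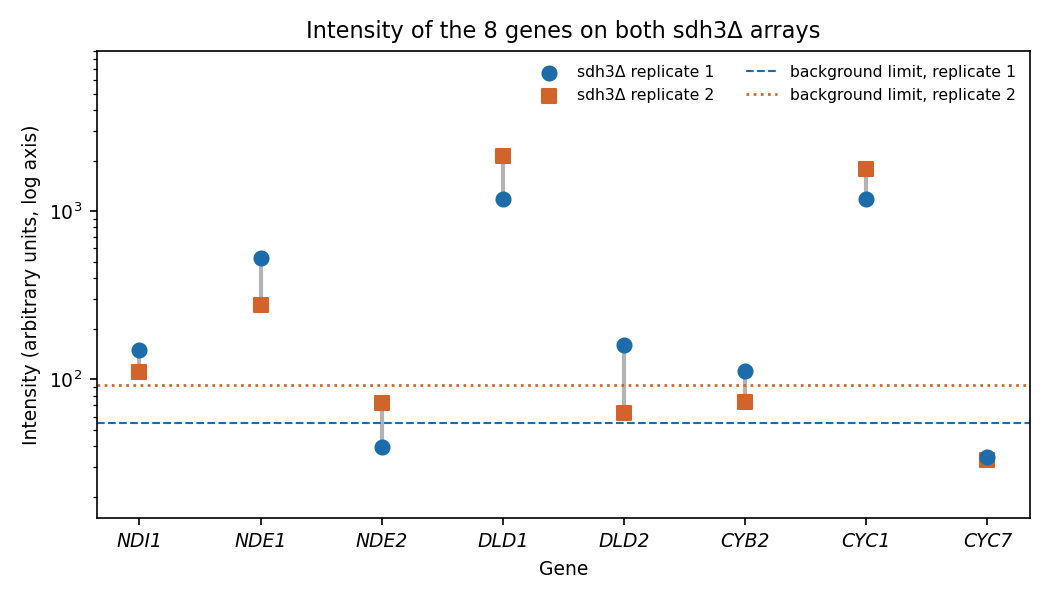
Intensity (log axis, arbitrary units) of each of the 8 genes on *sdh3*Δ replicate 1 (circles) and replicate 2 (squares), joined by a grey line, with the background limit of each array as a horizontal line (54.8 on replicate 1, 92.1 on replicate 2). *NDI1*, *NDE1*, *DLD1* and *CYC1* lie above the limit on both arrays, *DLD2* and *CYB2* on replicate 1 only, and *NDE2* and *CYC7* on neither.

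Among the NADH dehydrogenases, *NDI1* (YML120C), which encodes the enzyme that faces the matrix and oxidizes NADH from the TCA cycle, had intensities of 149 and 110 in replicates 1 and 2. Its mean was 130 ± 27.8 (SD, n = 2), and the value was 2.73 times the background limit on replicate 1 and 1.20 times that limit on replicate 2. The gene was thus detected on both arrays, but close to background on replicate 2.

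*NDE1* (YMR145C) encodes an external enzyme, which faces the intermembrane space and oxidizes NADH from the cytosol. It had 528 in replicate 1 and 277 in replicate 2, a mean of 403 ± 178 (SD, n = 2), at 9.64 and 3.01 times the limits of these arrays. The external dehydrogenase was therefore detected on both arrays with replicate 1 the brighter by 1.91-fold, a log2 ratio of 0.93.

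*NDE2* (YDL085W), the gene for the second external enzyme, had 39.4 and 72.7, a mean of 56.0 ± 23.6 (SD, n = 2), and neither value was above its limit. The brighter array was replicate 2, the array on which the controls for absent genes were also brighter, and no fold is given because both values lie at or below background. Of the external pair, *NDE1* was thus detected on both arrays and *NDE2* on neither.

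Among the lactate dehydrogenases, *DLD1* (YDL174C) encodes the D-lactate dehydrogenase of the inner membrane, which reduces cytochrome c. It gave 1178 in replicate 1 and 2125 in replicate 2, a mean of 1651 ± 669 (SD, n = 2). These values were 21.5 and 23.1 times the background limits, so *DLD1* was far above background on both arrays. The arrays differed by 1.80-fold, a log2 ratio of -0.85. Among probe sets in the brightest of 10 bins by mean value, which holds *DLD1*, the median ratio was -0.14 and the SD 0.92.

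*DLD2* (YDL178W, also *AIP2*) encodes a D-2-hydroxyglutarate dehydrogenase of the mitochondrial matrix that is related to the D-lactate enzymes. In the R64 assembly it is separated from *DLD1* by 3 protein-coding genes. It gave 159 in replicate 1, 2.91 times the limit, and 62.7 in replicate 2, which was not above background. With replicate 2 at its limit, *DLD2* was at least 1.73-fold brighter on replicate 1, and the log2 ratio of the values as deposited was 1.35. The genes *DLD1* and *DLD2* were thus brighter on opposite arrays.

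*CYB2* (YML054C), the gene for flavocytochrome b2, the L-lactate dehydrogenase of the intermembrane space, had 113 and 73.5. The first value was 2.06 times the limit of replicate 1 and the second was not above that of replicate 2, so the gene was at least 1.22-fold brighter on replicate 1. Its mean was 93.1 ± 27.7 (SD, n = 2), and whether it was detected depended on the array.

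For cytochrome c, *CYC1* (YJR048W), which encodes iso-1, the main form in aerobic cells, gave 1185 in replicate 1 and 1773 in replicate 2, a mean of 1479 ± 415 (SD, n = 2). The values were 21.6 and 19.3 times the background limits. *CYC1* was therefore far above background on both arrays in cells taken on glucose, and it differed 1.50-fold between them, a log2 ratio of -0.58.

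*CYC7* (YEL039C), the gene for iso-2, the form favoured at low oxygen, had 34.7 in replicate 1 and 33.3 in replicate 2, a mean of 34.0 ± 0.981 (SD, n = 2). Both values lay below the limits, at 0.633 and 0.362 of them. Values below the limits give no measured level, so their closeness is not read as a small spread. As for the external NADH dehydrogenases, 1 gene of the cytochrome c pair was detected on both arrays and the other on neither.

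The 2 arrays bound how finely these levels are known. Of the 8 genes, 5 were brighter on replicate 1 and 3 on replicate 2, against 55.9% and 44.1% of all named genes. These counts include *NDE2* and *CYC7*, below background on both arrays. With arrays divided by their median they were 4 and 4. Only *DLD2* differed by more than 2-fold as deposited, and with replicate 2 at its background limit it did not. Among all named genes 16.7% differed by that much, 12.6% with replicate 1 the brighter and 4.17% with replicate 2, so 1 of 8 is near the background. The median log2 ratio of the 8 genes was 0.25, against 0.12 over all named genes, and it turned to -0.070 over the 4 genes above background on both arrays. No median over all named genes above background on both arrays was computed. With values raised to background the median was 0.37 for the 6 of these genes that were above it on at least 1 array, against -0.23 over all named genes so selected. The limit was higher on replicate 2, at 92.1 against 54.8. Raising therefore lowers the ratio of genes above background on replicate 1 only, 33.2% of all named genes. The gap between these medians is not read as a shift of the 8 genes. The SD of the ratio was 0.84 among the 8 genes and 0.73 over all named genes.

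**Figure D2:**
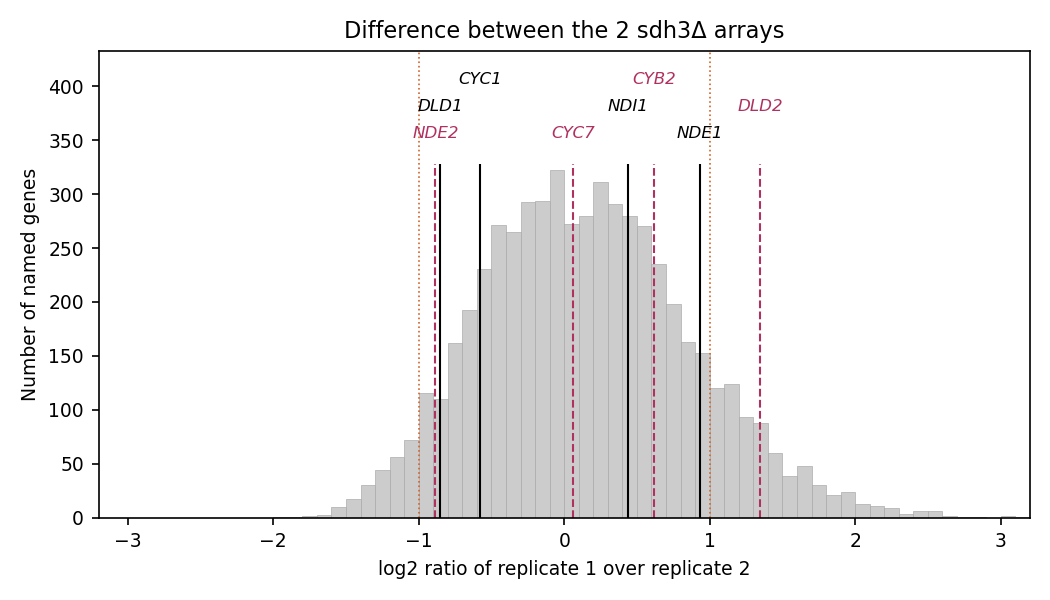
Histogram of the log2 ratio of replicate 1 over replicate 2 for the 5656 named genes (grey, number of genes on the vertical axis), with a vertical line for each of the 8 genes, solid and black for those above background on both arrays and dashed and red for the others; dotted lines mark 2-fold. *DLD2*, at 1.35 with replicate 2 below background, is the only gene of the 8 beyond 2-fold, and *CYC1*, *DLD1* and *NDE2* lie on the side of replicate 2.

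The spread between arrays differed with intensity, and each ratio was also set beside probe sets of similar mean value, in 10 bins. In bin 10, the brightest, the SD of the log2 ratio was 0.92. It holds *DLD1* and *CYC1*, and 38.0% and 58.4% of its probe sets differed between arrays by more than these genes did. *NDE1* lay in bin 9, with an SD of 0.91, where 31.9% differed by more. For *NDI1* the share was 63.3% in bin 8, and *CYB2*, detected on replicate 1 only, lay in bin 7. *DLD2* lay in bin 7 too, with an SD of 0.74. Its log2 ratio as deposited was 1.35, and 7.12% of the bin differed by more, but its replicate 2 value was below background. With replicate 2 at the background limit its ratio was 0.79, which is not on the measure of the bin. The genes detected on both arrays thus differed between them by about the usual spread at their intensity or less.

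*CYC1* and *DLD1* were brighter on the array where the controls added at hybridization were brighter too. With each array divided by the geometric mean of those 9 controls, a scaling chosen after the data were seen, the log2 ratio was -0.10 for *CYC1* and -0.37 for *DLD1*, while *NDE1* moved to 1.41 and *DLD2* to 1.83. This scaling placed the median of all named genes at 0.60, so relative to all genes the order of the 8 was as before. The part of the controls in the difference was not tested.

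**Figure D3:**
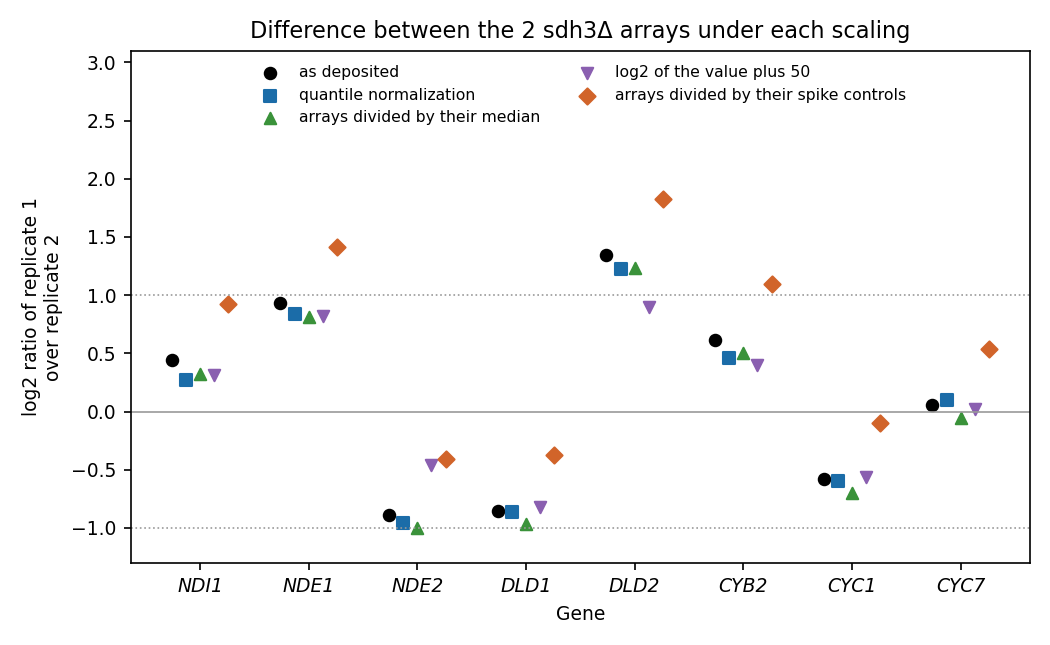
Log2 ratio of replicate 1 over replicate 2 for each of the 8 genes with the values as deposited and under 4 other scalings; dotted lines mark 2-fold. Only *CYC7*, at background, changes sign, at 0.06 as deposited and -0.06 with arrays divided by their median, and scaling to the spike controls raises all 8 values by the same amount.

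Other genes of the same pathways, taken from 4 lists, were spread over both directions as well. Of 9 genes for other electron entries and related dehydrogenases, 4 were brighter on replicate 1 and 5 on replicate 2. Their median log2 ratio was -0.21, and 6 were above background on both arrays, beside 40.0% of all named genes. The list includes the deleted gene *SDH3*, and without it 4 genes were brighter on each array, with a median of -0.049. The remaining subunit genes of succinate dehydrogenase were detected on both arrays in the strain that lacks *SDH3*. *SDH1*, which encodes the flavoprotein, had 128 and 201, *SDH2*, which encodes the iron-sulfur subunit, had 224 and 272, and *SDH4*, the gene for the other membrane anchor, had 170 and 331. All lay higher on replicate 2, as did 44.1% of all named genes. The other genes of this list above background on both arrays, *DLD3*, *URA1* and *MCR1*, were brighter on replicate 1.

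*DLD3*, which encodes the cytosolic relative of *DLD2*, differed most in this list. It gave 1626 in replicate 1 and 505 in replicate 2, a mean of 1065 ± 793 (SD, n = 2) and a log2 ratio of 1.69. It was above background on both arrays and brighter on replicate 1, the direction of *DLD2* and of 55.9% of all named genes. *PUT1*, proline oxidase, was above background on neither array, at 52.2 and 60.4.

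Among 10 genes for proteins that mature, reduce or oxidize cytochrome c, 7 were brighter on replicate 1, beside 55.9% of all named genes, and 5 were above background on both arrays, beside 40.0%. The median log2 ratio was 0.16 as deposited and 0.039 with quantile normalization. *CYC3*, which encodes the heme lyase that attaches heme to cytochrome c, had 296 and 578, a log2 ratio of -0.96. *CCP1*, cytochrome c peroxidase, had 278 and 554, a difference of 1.99-fold. Both were brighter on replicate 2, as were 44.1% of all named genes. The other genes of this list above background on both arrays, *CYT2*, *QCR6* and *COX5A*, were brighter on replicate 1.

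In the same list *MIA40*, *ERV1* and *COX5A* were more than 2-fold brighter on replicate 1 as deposited, as were 12.6% of all named genes. With values raised to background *MIA40* and *COX5A* still were, a setting in which the share over all named genes was not computed. *MIA40* and *ERV1*, whose products form the disulfide relay that delivers electrons to cytochrome c, were above background on replicate 1 only, at 216 and 116 against 65.5 and 46.6 on replicate 2, so at least 2.34-fold and 1.26-fold brighter. *COX5A*, the gene for the aerobic form of subunit V of cytochrome c oxidase, had 688 and 302, a ratio of 1.19. Its hypoxic counterpart *COX5B* was above background on neither array, at 35.1 and 37.3, as was the hypoxic *CYC7*.

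The 6 genes of lactate and pyruvate use, which include *DLD3*, had a median log2 ratio of 0.62. Of them 4 were brighter on replicate 1, beside 55.9% of all named genes, and 3 were above background on both arrays, beside 40.0%. *JEN1*, the lactate permease, was above background on neither array, at 39.9 and 65.2. *ADY2*, another carrier gene of this list, was above background on both arrays, at 67.0 and 123. *DLD1* was thus detected on both arrays and *JEN1* on neither, but probe sets differ in affinity.

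Of 13 genes for regulators of respiration, oxygen response or glucose repression, 6 were brighter on replicate 1 and 7 on replicate 2. Their median log2 ratio was -0.004, and 4 were above background on both arrays, beside 40.0% of all named genes. As deposited 1 of the 13, *HAP4*, differed by more than 2-fold, with its replicate 2 value below background, beside 16.7% of all named genes. With values raised to background, 0 of the 13 did, and the share over all named genes was not computed in that setting. *HAP4*, which supplies the activation domain of the Hap complex, an activator of *CYC1*, had 77.1 in replicate 1 and 36.2 in replicate 2. The second value was not above background, and since 77.1 is below the limit of replicate 2 no lower bound on the fold is given. *MOT3*, a repressor of hypoxic genes, *ADR1* and *CAT8*, activators of genes used without glucose, were above background on neither array. *HAP1*, a heme-responsive activator, had 82.2 and 82.5 on its plain probe set, above the limit of replicate 1 only, while its other 2 probe sets, of kinds that can bind related transcripts, gave 752 and 567 and 510 and 380.

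**Figure D4:**
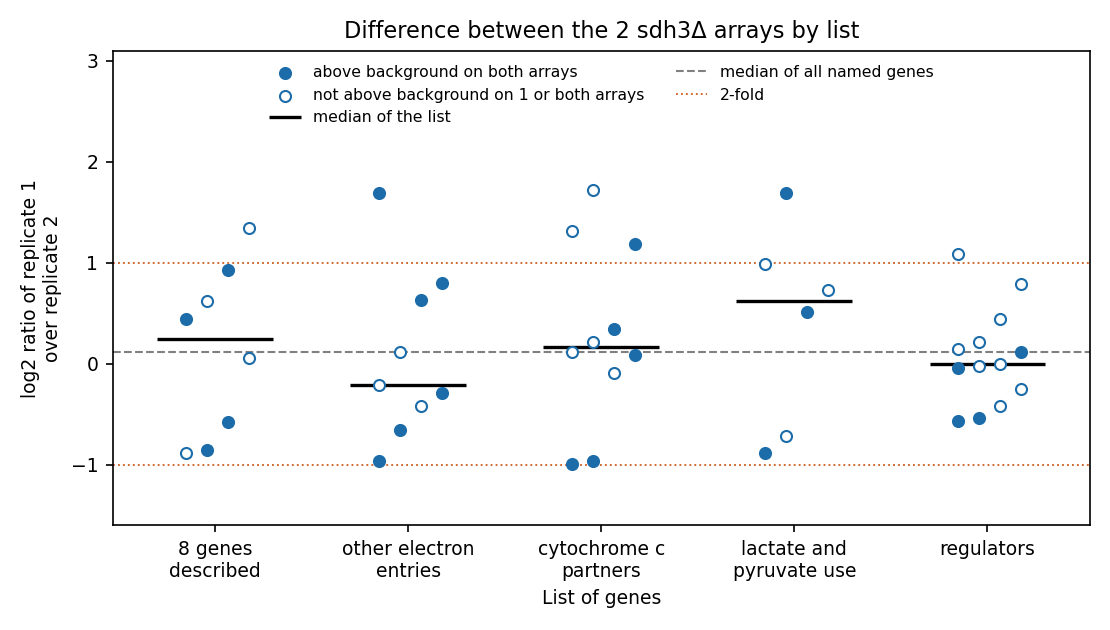
Log2 ratio of replicate 1 over replicate 2 for each gene of the 8 described and of 4 pathway lists (filled, above background on both arrays; open, not above it on 1 or both), with the median of each list as a black bar, that of all named genes (0.12) as a dashed line and 2-fold as dotted lines. Every list spans both directions, and the genes beyond 2-fold as deposited all lie on the side of replicate 1, those with open symbols resting on a value at background.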

How the data were processed

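RNA of 2 *sdh3*Δ samples was hybridized to Yeast Genome S98 arrays. The authors deposited linear intensities. They had scaled the scans with Microarray Suite (MAS5, version 5, in the submitters' processing notes), normalized them in dChip and summarized each probe set by its Perfect Match model. Of 9335 probe sets, 60 were controls, 6504 had 1 gene in the array annotation, 328 had several and 2443 had none, and 11 probe sets not above 0 on an array were left out on the log2 scale. The 5656 gene symbols were all found in the R64 gene table of RefSeq, used for names and gene order only. A gene's value was the log2 mean over its plain probe sets, with suffixed kinds used only where it had no plain one.

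A value was called above background where it exceeded the highest of 19 controls on its array whose target genes yeast lacks. No test between groups was possible with 1 group. The arrays correlated at r = 0.91 over probe sets on the log2 scale, which are not independent, and their number limits the precision. The text names the 8 members, *SDH3*, mating-type markers and, from each list, mainly genes past 2-fold or above background on neither array. The *SDH* subunits, *URA1*, *MCR1*, *CYC3*, *CCP1*, *CYT2*, *QCR6*, *ADY2* and *HAP1* were added after their values were seen. The members and lists were chosen with earlier results of these data known. Protein and promoter sequences and reference-strain values were not used here. The log2 ratios and quantile normalization were tested on simulated data with even noise and no background signal. The background call was not tested in this way. Python 3.11.15, numpy 2.4.6, pandas 2.3.3 and matplotlib 3.10.9 were used.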

Additional observations from a re-analysis of the deposited data

How the results depend on the processing

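Of the 8 genes, 1 differed by more than 2-fold as deposited and with quantile normalization, 2 with arrays divided by their median, 0 with values raised to background, 0 with 50 added before log2, and 3 with arrays divided by their spike controls. As deposited, 16.7% of all named genes differed by that much. The share was not computed under the other settings, so their counts are not read as a result about the 8 genes. The median log2 ratio of the 8 genes was 0.25. It stayed between 0.13 and 0.37 with quantile normalization, division by the array median, 50 added before log2, and values raised to background. Averaging all probe sets of a gene could not change it, since each of the 8 has 1 probe set, so that setting is no check. The median was 0.73 with the spike controls and turned to -0.070 over the 4 genes above background on both arrays. Both of these were choices made after the data were seen. Dividing by the spike controls moved the lists to 0.27 for other electron entries, 0.65 for cytochrome c partners, 1.10 for lactate and pyruvate use and 0.48 for regulators, with all named genes at 0.60. Without *SDH3* the median for other electron entries was -0.049. With quantile normalization the medians of the cytochrome c partners and regulators were 0.039 and -0.15, and with values raised to background that of the regulators was -0.19. In that setting genes above background on neither array were left out. The number of genes above background was 6 with replicate 1 alone and 4 with replicate 2 alone. It was 4 with the limit at the median plus 2 SD of the controls, and 8 with the limit at *SDH3* on its array, 22.0 and 29.3. Among all named genes 40.0% were above the main limits on both arrays, and the share was not computed for these alternatives. The mean level of each gene moved by less than its SD with quantile normalization. Values raised to background, for the 6 genes above it on at least 1 array, and the geometric mean are no check. Either had to leave the level within its SD. With 1 array left out the level is the value of the other array. No paired analysis was possible because the series has 1 group. Levels below the limits of 54.8 and 92.1 are bounds only.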
